A study of Mus musculus with 4 samples.

Results

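Splicing genes of 3 kinds were followed in mouse embryonic stem cells that had lost the zinc finger protein ZBTB21: SR proteins with the CLK kinases that phosphorylate them, heterogeneous nuclear ribonucleoproteins (hnRNPs), and protein components of the spliceosome. The members are 58 named genes out of 55401 gene IDs in the count table, chosen by symbol and family: 12 SR proteins, 13 hnRNPs, 3 U1 proteins, 7 Sm core proteins, 9 proteins of U2 and U2AF, 7 of the tri-snRNP and the Prp19 complex, 4 DEAD-box and RBM cofactors, and 3 CLK kinases. All 58 passed the filter on low counts, among 13916 genes tested.

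RNA-seq was read in 2 libraries of degron cells and 2 libraries of untreated cells. Both groups are mouse embryonic stem cells that carry an inserted gene for the plant auxin receptor OsTIR1. In both groups, both Zbtb21 alleles carry a C-terminal mAID degron with GFP, so the untreated cells hold the tagged protein too. Both were grown with LIF, the GSK3 inhibitor CHIR99021 and the MEK inhibitor PD0325901. In degron cells, 24 h of doxycycline (1 µg/ml) was followed by 24 h of the auxin IAA (500 µM). The tagged cells were picked as clones, and how many clones the libraries came from is not stated. The labels do not say whether the untreated cells received doxycycline, and no library with these additions and an untagged ZBTB21 was analysed here, so the effects of the additions and of the loss of ZBTB21 cannot be told apart.

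The spliceosome removes introns from pre-mRNA. Its U1 particle reads the 5′ splice site, U2 with SF3A and SF3B binds the branch point, U2AF reads the 3′ splice site, and the tri-snRNP with the Prp19 complex then builds the active centre. A ring of Sm proteins holds the small nuclear RNA of U1, U2, U4 and U5. SR proteins bind exons and mostly favour their inclusion, hnRNPs bind pre-mRNA and often oppose it, and many of these proteins also set the level of their own mRNA through splicing, which counts summed per gene do not show.

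The libraries held 9055498 and 8344408 counts in degron cells and 10604451 and 9431642 in untreated cells. Pearson's r across genes, which are not independent replicates, was 0.994 within each group and 0.976 to 0.977 between groups. Zbtb21 mRNA was higher in degron cells (129.6 and 133 CPM) than in untreated cells (61.7 and 56.9 CPM), by 1.14 ± 0.06 on the log2 scale (± SE; edgeR adjusted p = 2.66e-26). Since the tag destroys protein and not mRNA, this is no check of the labels. The 10 embryonic stem cell markers summed to 6583 and 6575 CPM in degron cells and to 6655 and 6712 CPM in untreated cells. Single markers did differ, as edgeR called 3 of these 10 higher and 4 lower in degron cells. Of 8 fibroblast markers, Dcn, Lum and Postn were at 0 in every library, and the list summed to 10.7 and 8.51 CPM in degron cells against 15.3 and 15.7 CPM in untreated cells. Primitive endoderm markers (7 genes) reached 16.1 and 16.1 CPM in degron cells, against 10.5 and 10.3 CPM in untreated cells. Neural markers (6 genes) reached 137 and 134 CPM in degron cells, against 170.3 and 165 CPM in untreated cells. Trophoblast markers (5 genes) reached 15.2 and 13.3 CPM in degron cells, against 14.5 and 15.8 CPM in untreated cells. By edgeR, 3 of 4 neural markers tested and 1 of 3 fibroblast markers tested were called lower. Of 4 primitive endoderm markers tested 1 was called higher, and of 2 trophoblast markers tested 0 were called. What these other cell types contribute to the results was not tested.

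Most members that changed were lower in degron cells. By edgeR's quasi-likelihood test with Benjamini-Hochberg adjustment over all 13916 genes (threshold 0.05), 30 of the 58 members were lower in degron cells (51.7%), 3 were higher (5.17%) and 25 did not pass. Over all genes tested, 43.8% were called, 21.6% lower and 22.2% higher. The mean levels of members ran from 41.8 CPM (Srsf4) to 1247 CPM (Hnrnpu), not scaled by length, and among the 5409 genes at or above the lowest of these levels, 30.8% were called lower and 26.7% higher. This cut is a floor and not a match of level, as the median level of the members was 285 CPM. The median log2 fold change of the members was -0.13, against 0.01 over all genes tested. Both degron libraries were below both untreated libraries in 40 members, above them in 7, and the groups overlapped in 11; over all genes tested the groups did not overlap in 70.6%, with degron cells below in 34.4% and above in 36.3%. All members together summed to 20740 and 20630 CPM in degron cells and to 23140 and 23790 CPM in untreated cells. In bulk RNA, fewer cells that make a transcript and less of it per cell cannot be told apart, and CPM are shares of each library's RNA, not amounts per cell. DESeq2 called 25 members lower and 3 higher, where over all genes it called 22.0%, 11.2% lower and 10.8% higher. The calls that DESeq2 lost were Srsf4, Hnrnpf, Sf3a3, Prpf8 and Prpf31.

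**Figure D1:**
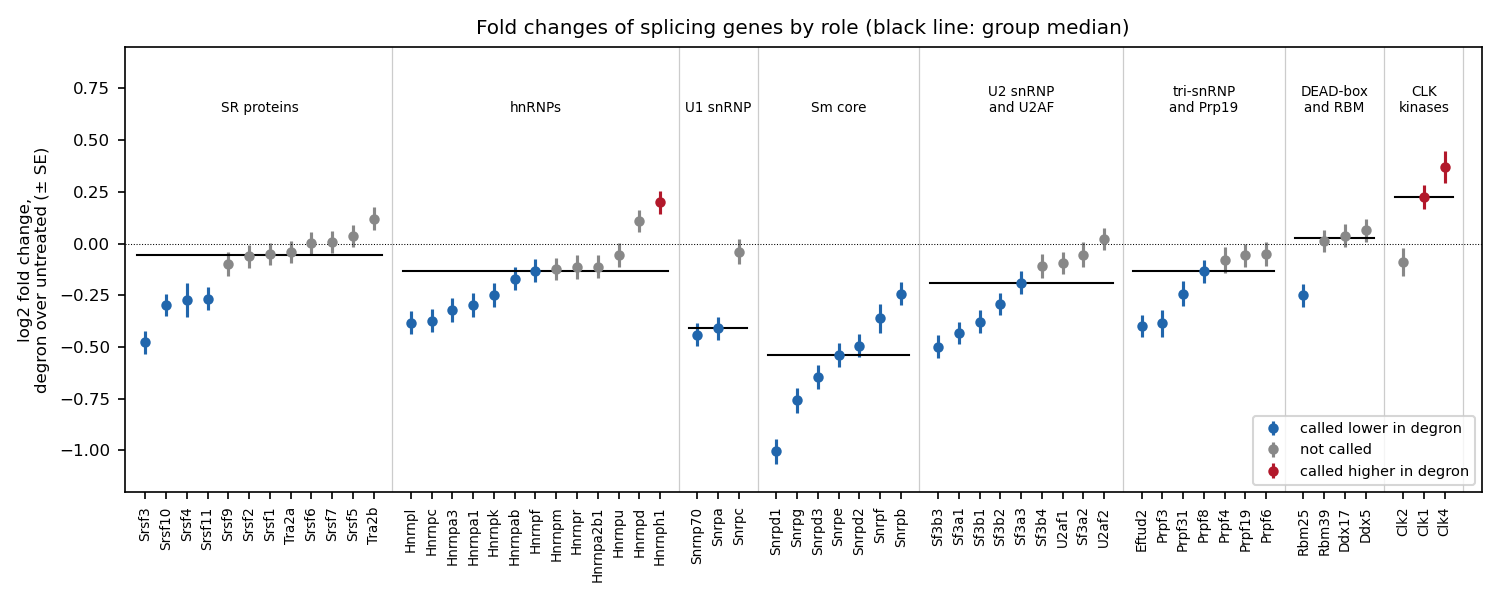
Log2 fold change of degron over untreated cells (y axis) for each of the 58 genes (x axis), grouped by role, with bars of 1 SE from edgeR and a black line at each group's median. Blue genes were called lower in degron cells, red genes higher and grey genes neither; all 7 Sm core genes lie below 0, from -1.004 to -0.24, and Clk1, Clk4 and Hnrnph1 are the 3 genes called higher.

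The Sm core was the group with the lowest median. All 7 Sm genes were called lower in degron cells, against 30.8% of all genes at or above the lowest member level. Their median log2 fold change was -0.54 and the range -1.004 to -0.24. Both degron libraries were below both untreated libraries for each of them, against 34.4% of all genes tested. Their summed level was 785 and 800.4 CPM in degron cells against 1109 and 1195 CPM in untreated cells. The 7 genes encode the ring proteins SmD1, SmD2, SmD3, SmE, SmF, SmG and, for Snrpb, SmB.

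Snrpd1, which encodes SmD1, had 75.6 and 72.4 CPM in degron cells, against 145 and 152 CPM in untreated cells. Its log2 fold change of -1.004 ± 0.06 (edgeR adjusted p = 2.91e-24) was the lowest of all 58 members, and the groups were far apart. Snrpg, which encodes SmG, had 74 and 76.5 CPM in degron cells, against 125 and 129 CPM in untreated cells. Its log2 fold change was -0.76 ± 0.06 (edgeR adjusted p = 7.06e-18), and these 2 genes were the only members that also passed edgeR's test against a 1.5-fold minimum. Snrpd3 (SmD3) had 113 and 111 CPM in degron cells, against 169 and 182 CPM in untreated cells, a log2 fold change of -0.64 ± 0.06 (edgeR adjusted p = 5.42e-16).

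Snrpe, for SmE, had 102 and 107 CPM in degron cells, against 146 and 158 CPM in untreated cells (log2 fold change -0.54 ± 0.06, edgeR adjusted p = 1.91e-12). Snrpd2, for SmD2, had 161 and 172 CPM in degron cells, against 226 and 242 CPM in untreated cells (log2 fold change -0.49 ± 0.05, edgeR adjusted p = 5.86e-12). In both genes the gap between the groups was wider than the gap between replicates. Snrpf, for SmF, had 61.9 and 58.9 CPM in degron cells, against 72.5 and 83.1 CPM in untreated cells (log2 fold change -0.36 ± 0.07, edgeR adjusted p = 1.39e-05). Snrpb had the smallest difference of the group, with 197 and 202 CPM in degron cells against 225 and 249 CPM in untreated cells (log2 fold change -0.24 ± 0.05, edgeR adjusted p = 0.00017). It was the most abundant Sm gene per length, taken here and below as all annotated exons of a gene merged. This length can exceed the longest coding transcript (1976 against 1161 bases for Snrpb, 1372 against 669 for Snrpe). Ranks and shares per length can differ with transcript length, which was not used. Snrpf and Snrpb also separated, with a wider spread in the untreated pair than in the degron pair.

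The Sm proteins enter the ring in equal numbers, and the make-up of their mRNA differed between the groups. In CPM per kilobase of exon, Snrpb made up 23.5% and 23.8% of the Sm sum in degron cells against 19.3% and 19.7% in untreated cells, and Snrpd1 made up 8.68% and 8.19% in degron cells against 12% and 11.6% in untreated cells. The ratio of Snrpd1 to Snrpb in CPM was 0.383 and 0.357 in degron cells and 0.646 and 0.612 in untreated cells, with no overlap. These ratios were described and not tested. Sm genes are short, with a median exonic length of 1976 bases against 4162 bases for all genes tested, and log2 fold change correlated weakly with log2 length across members (Pearson's r = 0.28, Spearman's rho = 0.18, n = 58 genes from the same 4 libraries). With the trend of each library on length removed, the Sm median was -0.46 and the range -0.94 to -0.17. Snrpf shares 567 of its 861 exonic bases with Ccdc38 on the other strand. The sources used here do not say whether the counting kept strand, which leaves the level of Snrpf uncertain. Of the 58 members, 9 share at least 10% of their exonic bases with the other strand, and the same limit holds for them. They are Snrpf, Snrpa, Sf3a2, Eftud2, Prpf31, Srsf2, Srsf4, Hnrnpab and Hnrnpf. Snrpf, Snrpe and Snrpg also share between 16% and 18.8% of their 75-base stretches with other genes, where reads can be split or lost. In 16 of the 58 members at least 10% of such stretches also occur in other genes. By the study's methods, reads were paired and longer than 75 bases, so these shares can overstate the reads affected.

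**Figure D2:**
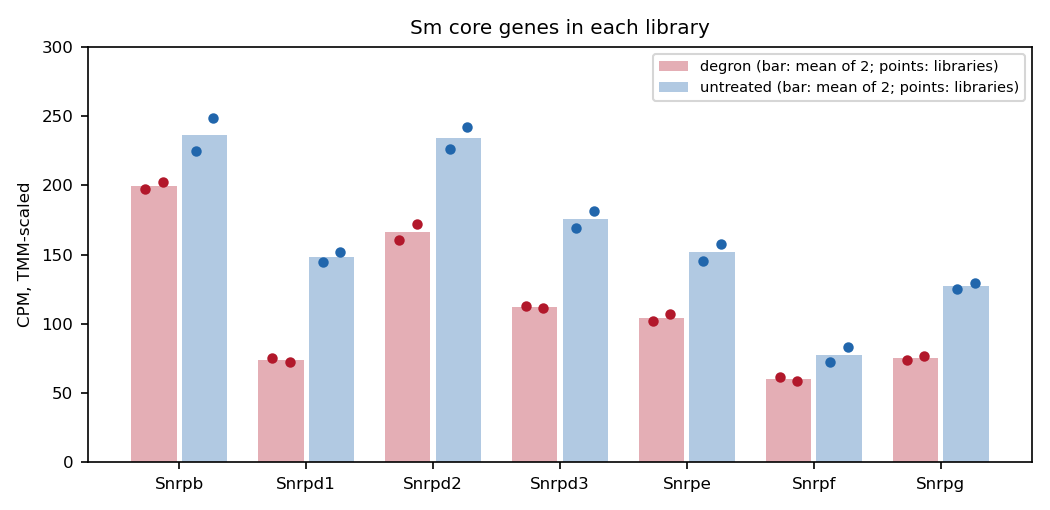
Level of each Sm core gene in CPM (y axis) in every library, with degron libraries (red) left of untreated libraries (blue) for each gene on the x axis, points for libraries and bars for the mean of 2. The degron points lie below the untreated points for all 7 genes, most widely for Snrpd1 at 75.6 and 72.4 CPM against 145 and 152 CPM.

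Promoters were read for the Sm genes with a log2 fold change of -0.49 or lower and an entry in the promoter set used here. Clk4, which changed in the other direction, was read too. The choice was made after their values were seen, to show what the upstream sequence holds. The set of RefSeq promoters used here (GRCm38.p6) covered 52 of the 58 members. It held no entry for Eftud2, Snrpd1, Sf3b4, Snrpb, U2af2 and Clk1. Each line gives the 250 bases before the start that RefSeq lists, 5′ to 3′ on the gene's strand. In GENCODE release 21, used for the genes here, all 5 genes begin further upstream, so each window overlaps the gene, and those of Snrpd3 and Clk4 lie wholly inside it (gene starts 75517551 and 51261730). Capitals mark CGGAAG or its complement CTTCCG, the core of an ETS family site, and TGACGTCA, the cAMP response element (CRE).
Snrpd2: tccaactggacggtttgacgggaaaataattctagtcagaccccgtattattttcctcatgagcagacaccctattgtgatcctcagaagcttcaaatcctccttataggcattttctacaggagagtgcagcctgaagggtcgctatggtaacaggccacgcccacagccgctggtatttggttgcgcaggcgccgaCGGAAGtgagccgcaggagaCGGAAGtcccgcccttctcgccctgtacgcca
Snrpd3: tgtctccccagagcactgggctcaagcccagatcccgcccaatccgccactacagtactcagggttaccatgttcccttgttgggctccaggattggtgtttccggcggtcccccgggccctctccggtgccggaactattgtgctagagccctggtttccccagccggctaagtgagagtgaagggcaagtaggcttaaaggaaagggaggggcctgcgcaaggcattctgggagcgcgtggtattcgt
Snrpe: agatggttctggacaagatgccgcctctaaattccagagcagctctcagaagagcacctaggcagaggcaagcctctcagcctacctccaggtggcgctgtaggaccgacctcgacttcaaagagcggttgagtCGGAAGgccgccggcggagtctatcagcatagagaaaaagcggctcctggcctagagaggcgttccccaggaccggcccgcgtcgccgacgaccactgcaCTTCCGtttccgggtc
Snrpg: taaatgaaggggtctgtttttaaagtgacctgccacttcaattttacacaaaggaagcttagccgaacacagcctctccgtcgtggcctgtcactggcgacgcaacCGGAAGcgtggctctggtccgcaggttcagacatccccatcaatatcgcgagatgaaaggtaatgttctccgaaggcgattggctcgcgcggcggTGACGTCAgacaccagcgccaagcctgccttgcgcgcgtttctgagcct
Clk4: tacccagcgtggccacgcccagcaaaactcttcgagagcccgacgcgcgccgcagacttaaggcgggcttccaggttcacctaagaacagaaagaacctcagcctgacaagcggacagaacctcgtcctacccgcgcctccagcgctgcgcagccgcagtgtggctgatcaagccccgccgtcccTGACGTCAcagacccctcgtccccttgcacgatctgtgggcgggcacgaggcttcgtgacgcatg
The windows are chr7:19149588-19149837 (plus strand) for Snrpd2, chr10:75517792-75518041 (plus strand) for Snrpd3, chr1:133610281-133610530 (minus strand) for Snrpe, chr6:86371290-86371539 (plus strand) for Snrpg and chr11:51262864-51263113 (plus strand) for Clk4.

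Counted back from RefSeq's start, the Snrpd2 window holds the ETS letters at -52 to -47 and at -32 to -27. The Snrpe window holds them at -116 to -111 and, on the other strand, at -16 to -11. The Snrpg window holds them at -144 to -139 and the CRE at -49 to -42, and the Clk4 window holds the CRE at -65 to -58. Neither the ETS letters nor the CRE were found in the Snrpd3 window. Searched on both strands of the same 250 bases, CGGAAG was in 27 of 52 member genes (51.9%), against 15.3% of 27025 genes in the table and 28.6% of the 10278 of them that were tested here. Among members it stood in 14 of 27 genes called lower, in 1 of 2 called higher and in 12 of 23 not called. TGACGTCA was in 4 of 52 member genes (Clk4, Snrpa, Snrpg and Tra2a; 7.7%), against 1.77% of all and 3.12% of tested genes. The NRF1 letters, GCGCN followed directly by TGCGC, were in 12 of 52 (23.1%, against 4.23% of all and 9.24% of tested genes), and CCAAT, the letters of NF-Y, in 26 of 52 (50%, against 37.5% and 41.1%). The E-box CACGTG was in 7 of 52 members (13.5%, against 6.86% and 9.95%), ACTACAA, for ZNF143, in 2 (3.8%, against 3.27% and 4.42%) and TGANTCA, for AP-1, in 2 (3.8%, against 7.82% and 5.05%). These searches used 7 sets of letters, of which the ETS letters were chosen after promoters of the members had been read. A match is a description of the letters and not a bound site.

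Of the U1 proteins, Snrnp70 and Snrpa were lower in degron cells and Snrpc did not pass. Snrnp70 encodes U1-70K, which binds U1 RNA and receives SR proteins at the 5′ splice site. It had 364 and 339.5 CPM in degron cells, against 479 and 477 CPM in untreated cells (log2 fold change -0.44 ± 0.05, edgeR adjusted p = 1.90e-10). Snrpa, the A protein of U1, had 136 and 127 CPM in degron cells, against 173 and 176 CPM in untreated cells (log2 fold change -0.41 ± 0.06, edgeR adjusted p = 4.04e-09). In both genes the groups were apart by more than either pair of replicates. Snrpc, the C protein of U1, had 107 and 109.5 CPM in degron cells and 105 and 118 CPM in untreated cells, where the groups overlapped (log2 fold change -0.04, edgeR adjusted p = 0.630).

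Among the U2 proteins, the large subunits of SF3B and SF3A1 were lower in degron cells, and both U2AF subunits did not pass the test. In all, 5 of 9 genes were lower and 0 higher, with a median of -0.19. The 55.6% called lower stands against 30.8% of all genes at or above the lowest member level. Sf3b3, a scaffold of SF3B, had 536 and 535 CPM in degron cells, against 760.3 and 754 CPM in untreated cells (log2 fold change -0.50 ± 0.06, edgeR adjusted p = 4.57e-12). Sf3a1, the largest SF3A subunit, had 189 and 187 CPM in degron cells, against 251 and 257 CPM in untreated cells (log2 fold change -0.43 ± 0.05, edgeR adjusted p = 1.77e-10). Replicates of both genes lay close together and the groups far apart. Sf3b1, whose protein clamps the branch point helix, had 424 and 420.4 CPM in degron cells, against 549 and 548 CPM in untreated cells (log2 fold change -0.38 ± 0.05, edgeR adjusted p = 1.65e-08). Sf3b2 (-0.29) and Sf3a3 (-0.19) were also lower, the Sf3a3 call being lost in DESeq2 and without degron library 1, while Sf3b4 (-0.11), Sf3a2 (-0.05) and U2af2 (0.02) did not pass. U2af1, which reads the AG of the 3′ splice site, was the most abundant gene of this group per length, with 253 and 255 CPM in degron cells and 272 and 270.2 CPM in untreated cells. Its groups were apart, but the log2 fold change of -0.09 did not pass (edgeR adjusted p = 0.145), and 53.9% of its 75-base stretches also occur in other genes. The ratio of Sf3b3 to Sf3b4 was 3.87 and 4.31 in degron cells against 5.35 and 5.34 in untreated cells. Of the stretches of Sf3b4, 43.2% also occur in other genes.

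Of the tri-snRNP and Prp19 genes, 4 of 7 were lower in degron cells and 0 higher, with a median of -0.13. Genes called lower made up 57.1%, against 30.8% of all genes at or above the lowest member level. Eftud2, the GTPase of U5, had 269 and 269 CPM in degron cells, against 353 and 357 CPM in untreated cells (log2 fold change -0.40 ± 0.05, edgeR adjusted p = 2.10e-09). Prpf3, a U4/U6 protein, had 78.1 and 73.2 CPM in degron cells, against 92.4 and 106 CPM in untreated cells (log2 fold change -0.39 ± 0.07, edgeR adjusted p = 9.19e-07). Neither gene had overlapping groups, and Eftud2 shares 2261 of its 8395 exonic bases with Gm26668 on the other strand. Prpf8, the scaffold of the active centre, was the most abundant gene of the group per length, with 606 and 586 CPM in degron cells against 666 and 641 CPM in untreated cells (log2 fold change -0.13 ± 0.06, edgeR adjusted p = 0.0413). That call was lost in DESeq2 and without degron library 1, degron library 2 or untreated library 1. Prpf31, which holds U4 to the tri-snRNP, was also lower (-0.24, not called by DESeq2), while Prpf4 (-0.08), the bridging protein Prpf6 (-0.05) and the ubiquitin ligase Prpf19 (-0.06) did not pass.

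SR proteins were split, with 4 of 12 lower in degron cells (33.3%), 0 higher and 8 that did not pass, and a median of -0.06. That share is near the 30.8% called lower among all genes at or above the lowest member level. Srsf3, the smallest of the family and one that also acts in mRNA export, had 458 and 480.3 CPM in degron cells, against 628 and 679 CPM in untreated cells. Its log2 fold change of -0.48 ± 0.06 (edgeR adjusted p = 2.82e-11) was the lowest of the SR genes, and the groups did not overlap. Its closest relative Srsf7 had 328 and 314 CPM in degron cells and 309.9 and 330.3 CPM in untreated cells, with overlapping groups. The ratio of Srsf3 to Srsf7 was thus 1.39 and 1.53 in degron cells against 2.03 and 2.05 in untreated cells. Of the stretches of Srsf3, 25.2% also occur in other genes.

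Srsf10, a splicing repressor once dephosphorylated, had 252 and 256 CPM in degron cells against 309 and 313 CPM in untreated cells, a log2 fold change of -0.30. Srsf4 (-0.27) and Srsf11 (-0.27) were also lower, and Srsf4 lost its call in DESeq2. Srsf4 shares 1532 of its 3561 exonic bases with Gm12992 on the other strand. Srsf2, the most abundant SR gene per length, had 346 and 363 CPM in degron cells and 356 and 385 CPM in untreated cells, which overlapped (log2 fold change -0.06, edgeR adjusted p = 0.378). The founding member Srsf1 (-0.05), Srsf5 (0.04), Srsf6 (0.00), Srsf7 (0.01), Srsf9 (-0.10) and Tra2a (-0.04) did not pass either. Tra2b, a partner of SR proteins at exonic enhancers, had 334 and 337 CPM in degron cells and 296 and 321 CPM in untreated cells, without overlap, and its log2 fold change of 0.12 was near the threshold (edgeR adjusted p = 0.0612).

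Of the hnRNPs, 7 of 13 were lower in degron cells, 1 was higher and 5 did not pass, with a median of -0.13. Those called lower made up 53.8%, against 30.8% of all genes at or above the lowest member level. The 2 groups of libraries were apart in all 13, with degron cells below in 11 and above in 2. Over all genes tested they were apart in 70.6%, with degron cells below in 34.4% and above in 36.3%. Hnrnpl, which binds CA-rich RNA, had 627 and 593 CPM in degron cells, against 769.5 and 821 CPM in untreated cells (log2 fold change -0.38 ± 0.06, edgeR adjusted p = 3.22e-08). Hnrnpc, which binds runs of U and packs long pre-mRNA, had 476 and 495 CPM in degron cells, against 608 and 649.5 CPM in untreated cells (log2 fold change -0.37 ± 0.06, edgeR adjusted p = 3.82e-08). Both genes were lower by more than the gap between replicates. Hnrnpa3 had 1095 and 1053 CPM in degron cells, against 1369 and 1315 CPM in untreated cells (log2 fold change -0.32 ± 0.06, edgeR adjusted p = 3.43e-06). Hnrnpa1, a repressor of exon inclusion and the most abundant hnRNP per length, had 1122 and 1087 CPM in degron cells, against 1362 and 1351 CPM in untreated cells (log2 fold change -0.30 ± 0.06, edgeR adjusted p = 1.42e-05). The A1 and A3 genes differed by similar amounts, and 44.4% and 27.9% of their stretches occur in other genes.

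Hnrnpk (-0.25), which binds C-rich RNA, Hnrnpab (-0.17) and Hnrnpf (-0.13) were lower too. Hnrnpf had an edgeR adjusted p of 0.0462, and its call was lost in DESeq2 and without degron library 1, degron library 2 or untreated library 2. Hnrnpab lost its call without the same 3 libraries, each left out in turn, and Hnrnpk without degron library 1. Hnrnph1, which binds runs of G, was the hnRNP that was higher, with 546 and 523 CPM in degron cells against 454 and 478 CPM in untreated cells (log2 fold change 0.20 ± 0.05, edgeR adjusted p = 0.00196), and it lost its call without degron library 1. Its ratio to the related Hnrnpf was 1.14 and 1.06 in degron cells against 0.885 and 0.871 in untreated cells. Of the 75-base stretches of Hnrnpf, 46.4% also occur in other genes. Hnrnpa2b1 (-0.11), Hnrnpm (-0.12), Hnrnpr (-0.11), Hnrnpu (-0.05) and Hnrnpd (0.11) did not pass.

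**Figure D3:**
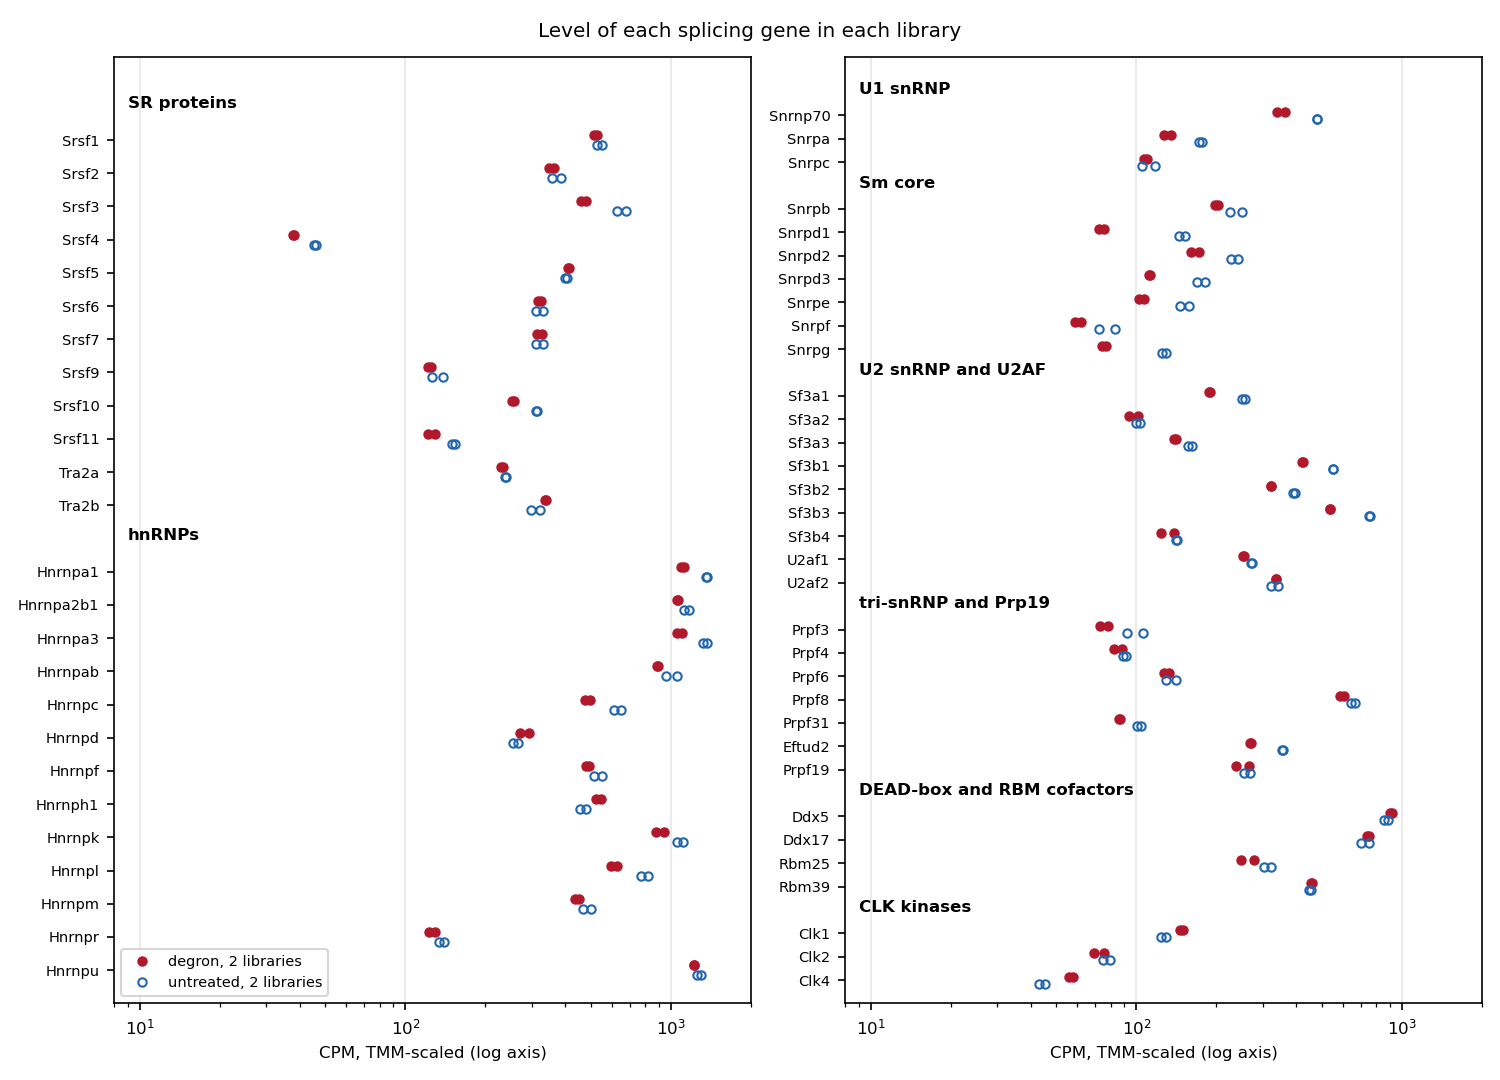
Level of each of the 58 genes (y axis, by role) in every library, in CPM on a log axis (x axis), with filled red points for the 2 degron libraries above open blue points for the 2 untreated libraries. Red points lie left of blue ones in 40 genes and right of them in 7, and the groups overlap in 11.

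Of the 4 cofactors, 1 was lower and 3 did not pass, with a median of 0.03. The 25% called lower stands against 30.8% of all genes at or above the lowest member level. Ddx5, an RNA helicase and the most abundant of them per length, had 904 and 921 CPM in degron cells and 858 and 888 CPM in untreated cells, without overlap but not past the test (log2 fold change 0.06, edgeR adjusted p = 0.377). Its paralog Ddx17 (0.04) and Rbm39 (0.01), which works with U2AF, did not pass either. Rbm25, which acts with U1, was lower at 277 and 248 CPM in degron cells against 323 and 303 CPM in untreated cells (log2 fold change -0.25, edgeR adjusted p = 0.000118), and lost its call without degron library 2.

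Of the 3 CLK kinases, which phosphorylate SR proteins, Clk1 and Clk4 were higher in degron cells and Clk2 did not pass. Clk4 had 57.9 and 56 CPM in degron cells, against 45.2 and 42.9 CPM in untreated cells (log2 fold change 0.37 ± 0.08, edgeR adjusted p = 3.79e-05), the highest fold change of the 58 members. Clk1, the most abundant of the 3 per length, had 149.7 and 146 CPM in degron cells, against 129 and 124 CPM in untreated cells (log2 fold change 0.23 ± 0.06, edgeR adjusted p = 0.000622). Both genes had degron libraries above both untreated libraries, as did 36.3% of all genes tested. Clk2 had 75.3 and 69.5 CPM in degron cells and 79.2 and 74.7 CPM in untreated cells, with overlapping groups (log2 fold change -0.09, edgeR adjusted p = 0.289). Their relative Clk3, which is not a member, had 52.6 and 52.3 CPM in degron cells and 56.9 and 55.6 CPM in untreated cells, and did not pass either (log2 fold change -0.10, edgeR adjusted p = 0.266). The ratio of Clk1 to Clk2 was 1.99 and 2.1 in degron cells against 1.63 and 1.66 in untreated cells, and that of Clk4 to Clk2 was 0.77 and 0.806 in degron cells against 0.57 and 0.575 in untreated cells. Counts were summed per gene, so transcripts of Clk1 and Clk4 that keep an intron or skip an exon were not told apart from those that make the kinase.

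**Figure D4:**
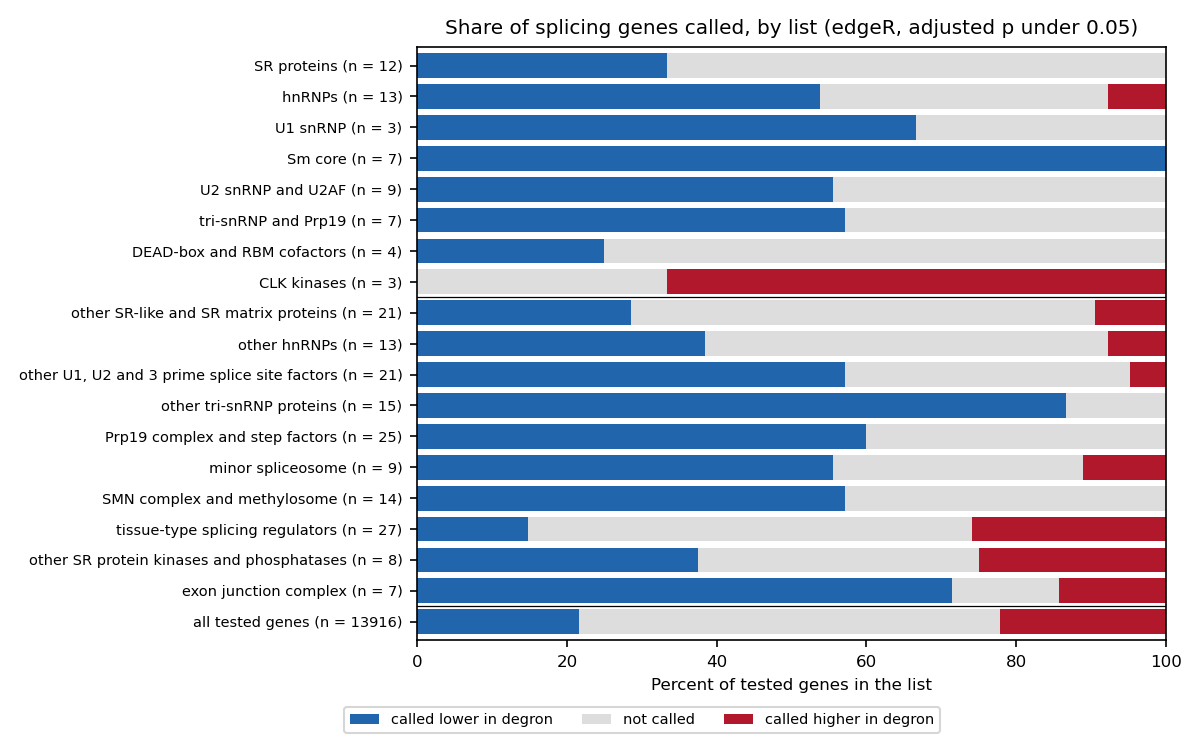
Percent of tested genes (x axis) called lower (blue), not called (grey) or called higher (red) in degron cells by edgeR, for each role group, each further list of splicing genes and all genes tested (y axis). The Sm core stands at 100% lower and the CLK kinases at 66.7% higher, against 21.6% lower and 22.2% higher over all genes.

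Further splicing genes were read in 10 lists. Of 158 genes tested, 74 were lower in degron cells by edgeR (46.8%) and 15 higher (9.49%), with a median of -0.13, and DESeq2 called 45 lower and 9 higher. The shares over all genes tested were 21.6% lower and 22.2% higher by edgeR, and 11.2% and 10.8% by DESeq2. Of 21 other U1, U2 and 3′ splice site factors, 12 were lower and 1 higher (8 and 1 by DESeq2). Snrpa1, a leucine-rich U2 protein, had 62.6 and 64.7 CPM in degron cells against 115 and 130.4 CPM in untreated cells, a log2 fold change of -0.94. The helicases Ddx46 (-0.61) and Dhx15 (-0.40) and the SF3B subunit Phf5a (-0.41) were lower as well. Of 15 other tri-snRNP genes, 13 were lower and 0 higher (6 and 0 by DESeq2), among them Snrnp40 (-0.49), Ppih (-0.62), Ddx23 (-0.37) and Snu13 (-0.36). Of 25 genes of the Prp19 complex and the catalytic steps, 15 were lower and 0 higher (5 and 0 by DESeq2), with Ppil1 (-0.48), Ctnnbl1 (-0.48), Ppie (-0.54) and Aqr (-0.29) first by p.

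The SMN complex and the methylosome, which load the Sm ring on small nuclear RNA, had 8 of 14 genes lower and 0 higher (7 and 0 by DESeq2). Gemin5 (-0.41), Clns1a (-0.39), Gemin6 (-0.46) and the cap methylase Tgs1 (-0.33) were first by p. For this list and those below, the shares over all genes tested were 21.6% lower and 22.2% higher by edgeR (11.2% and 10.8% by DESeq2). Of 7 genes of the exon junction complex and its partners, 5 were lower and 1 higher by edgeR, and 5 lower and 0 higher by DESeq2. The core genes Eif4a3 (-0.54), Magoh (-0.59) and Rbm8a (-0.33) and the partner Rnps1 (-0.37) were lower, the core gene Casc3 (0.17) was higher by edgeR and not by DESeq2, and Magohb (-0.19), the paralog of Magoh, did not pass. Casc3 and Magohb were named after their values were seen. The other hnRNPs had 5 of 13 lower and 1 higher (4 and 0 by DESeq2), with Hnrnph2 (-0.44), Hnrnpdl (-0.27) and Pcbp3 (-0.63) lower and Hnrnph3 (0.20) higher, a call that was lost in DESeq2 and without untreated library 1, degron library 1 or degron library 2. Of 21 other SR-like proteins, 6 were lower and 2 higher (4 and 0 by DESeq2). That share of 28.6% lower is near the 30.8% of all genes at or above the lowest member level. The median was 0.01, and degron cells were below in 9 genes and above in 9. The called genes first by p were Rnps1, Luc7l3 (-0.27), Acin1 (-0.25) and Srrm1 (-0.24), all lower.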

How the data were processed

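RNA-seq counts were read in 2 degron and 2 untreated libraries. Per the labels and the study's methods, the authors trimmed reads with cutadapt 2.6, mapped them to mm10 with STAR 2.7.6a, removed PCR duplicates and deposited raw counts per gene from featureCounts 1.6.3 on GENCODE release 25. Duplicate removal can lower the counts of abundant or short genes. Libraries were poly(A) selected by the labels, while the study's text speaks of total RNA-seq. The strand setting is not given in the sources used here. Columns were matched to samples by condition and replicate, and 0 columns were left over. GENCODE release 21 (GRCm38) held 55141 of the 55401 gene IDs and gave symbols, exonic lengths and GC content.

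The quasi-likelihood F test of edgeR 4.0.16 (R 4.3.3) compared the groups after filterByExpr and TMM scaling, with group as the one term and Benjamini-Hochberg adjustment over 13916 genes at 0.05. CPM were scaled by TMM library sizes, except the marker sums, which use unscaled totals, and the SE is the size of the log2 fold change divided by the square root of F. The procedure was also run on simulated counts in which few genes changed, in balanced directions. In these data 43.8% of genes were called, so that run cannot give their rate of false calls. Total counts of 8344408 to 10604451 per library set the precision, and the lowest count of a member was 318. Libraries of 1 group differed beyond sampling noise (chi-square per gene 1.62 in the degron pair and 2.24 in the untreated pair). Separate cultures are not stated for the replicates. The p-values therefore cover only the spread among these libraries, possibly technical.

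The alternatives were DESeq2 1.42.0, limma-voom (limma 3.58.1), RLE, upper quartile and unscaled library sizes, no filter, a filter of 1 CPM for both means, a 1.5-fold minimum (glmTreat), protein-coding genes alone, removal of GC or length trends (splines with 5 degrees of freedom), the replicate block with and without the GC step, and leaving out each library. Of 26808 genes with a count, 13513 had no adjusted p in DESeq2. With 1 library in a group, its spread was assumed to be that of the other. Values of every library are given for members called with an absolute log2 fold change of at least 0.3, the 3 Clk kinases and the most abundant member per length of each role. From each other list up to 4 called genes were named in order of p, most with a log2 fold change alone. Other genes and per-library values were chosen after they were seen. The members and lists were chosen with earlier results of these data known. Promoters are from RefSeq, GRCm38.p6.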

Additional observations from a re-analysis of the deposited data

How the results depend on the processing

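Of the 33 called members, 24 kept their call in each of the alternatives other than the 1.5-fold minimum, and 26 kept it when each library was left out in turn. No called member changed direction. Members called lower numbered 25 in DESeq2 and 2 at the 1.5-fold minimum, and 25 to 33 when each library was left out. Members called higher numbered 0 at the 1.5-fold minimum, 5 with library sizes alone and 2 to 5 when each library was left out, with the 5 found without untreated library 2. The members' median log2 fold change ranged from -0.19 to -0.12 when each library was left out. Over all genes, DESeq2 called 1440 higher and 1484 lower, and the 1.5-fold minimum 287 higher and 239 lower. Same-numbered libraries deviated together with a correlation of 0.0439 and were not taken as pairs; the replicate block called 34 members lower and 5 higher, and 34 and 5 also with the GC trend removed. 

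Members that did not pass changed sign under some settings. Srsf6 was at -0.00029 in DESeq2, -0.0071 with RLE, -0.0089 with upper quartile scaling, -0.0048 with the 1 CPM filter and -0.017 with the length trend removed. Srsf7 was at -0.0038 with RLE, -0.0055 with upper quartile scaling, -0.0014 with the 1 CPM filter, -0.0030 with the GC trend removed and -0.0019 with the block as well. Ddx17 was at -0.017 and Rbm39 at -0.035 with the length trend removed. When each library was left out in turn, the log2 fold change ranged as follows: Srsf6 -0.048 to 0.046, Srsf7 -0.049 to 0.054, Snrpc -0.13 to 0.045, Sf3a2 -0.11 to 0.0031, U2af2 -0.032 to 0.069, Prpf6 -0.12 to 0.012, Prpf19 -0.13 to 0.024, Ddx17 -0.0070 to 0.079, Rbm39 -0.0082 to 0.027. The cause of these changes was not tested. With 2 libraries a group, differences near 0.1 on the log2 scale lie at the limit of the test.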

Other observations

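Of 27 splicing regulators known for roles in particular tissues, 7 were higher in degron cells by edgeR (25.9%) and 4 lower (14.8%), near the 22.2% and 21.6% of all genes tested (6 higher and 3 lower by DESeq2). Their median log2 fold change was 0.06, and -0.01 with the length trend removed. Mbnl2, a muscleblind protein, had 47.5 and 48.8 CPM in degron cells against 28.8 and 22.5 CPM in untreated cells (log2 fold change 0.90). Ptbp2, the neuronal form of the polypyrimidine tract binding protein, had 28.9 and 29.6 CPM in degron cells against 17.4 and 14.7 CPM in untreated cells (0.86), and the groups were apart in both genes. Taf15, a FET family RNA binding protein, was higher too (0.63), and Matr3, a nuclear matrix protein, was lower (-0.39).

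Of 8 other SR protein kinases and phosphatases tested, 2 were higher and 3 lower by edgeR, and 1 higher and 2 lower by DESeq2. By edgeR that is 25% higher and 37.5% lower, against 22.2% and 21.6% of all genes tested. Dyrk1a (0.36) and Dyrk1b (0.76), kinases related to the CLKs, were higher by edgeR, and DESeq2 did not call Dyrk1b. The phosphatase Ppm1g (-0.28) and the kinase Prpf4b (-0.25) were lower. The main SR protein kinases Srpk1 (-0.11) and Srpk2 (-0.13) and the CLK family member Clk3 (-0.10), named after their values were seen, did not pass. Of 9 genes of the minor spliceosome, which removes a rare class of introns, 5 were lower and 1 was higher (3 and 1 by DESeq2), with Snrnp48 (-0.55), Snrnp25 (-0.37) and Pdcd7 (-0.37) lower and Zrsr1 (0.54) higher.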
